A study of Mus musculus with 6 samples.

Results

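Ribosome biogenesis genes encode the proteins that transcribe, modify, cut and fold ribosomal RNA (rRNA) and assemble it into ribosomal subunits. A set of 40 such genes was chosen by gene symbol, for their known roles but with earlier results of these data known, out of 18193 genes named on the arrays. Of these, 39 had a probe set that named them alone, and no probe set named Npm3. For each gene the probe set with the highest mean log2 signal over the 6 arrays was used. A total of 38 genes passed the filter on detection, and all 38 were called present on all 6 arrays. Rrp9, a protein of the U3 ribonucleoprotein that cleaves pre-rRNA, was called absent on all 6 and entered no test. Its signals were 417 and 334 in 16 dpc ventral, 414 and 254 in 16 dpc dorsal, and 209.6 and 226 in virgin ventral cells, and none of them was above background by the detection call.

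The study compared epidermal basal cells of pregnant and virgin female C57BL/6 mice, 10 weeks old, to learn how abdominal skin expands during gestation. There were 2 arrays for each of 3 groups: ventral skin at 16 days post coitum (dpc), dorsal skin at 16 dpc, and ventral skin of virgin mice. In all groups skin was digested in cold trypsin overnight, and live cells (propidium iodide-negative) that displayed α6-integrin, which anchors basal keratinocytes to the basement membrane, were sorted. Total RNA was hybridised to Affymetrix 3′ expression arrays, which report a signal intensity in arbitrary units (a.u.) for each probe set. Cells of virgin dorsal skin were not analysed here, and pregnancy and body site differ together when 16 dpc dorsal cells are set against virgin ventral cells. The labels number the arrays of each group 1 and 2 but do not say that they came from separate animals. Each p-value is thus set against the scatter of these 6 arrays alone, and that scatter may be technical. In sorted bulk samples a lower share of expressing cells and less RNA per cell cannot be told apart.

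Ribosome production starts in the nucleolus, where RNA polymerase I transcribes the rRNA genes. Small nucleolar ribonucleoproteins (snoRNPs) then guide methylation (box C/D) and pseudouridylation (box H/ACA) of the transcript, while large assemblies of processing factors build the small and large subunits along separate routes. The transcription factor MYC activates many genes of the pathway, and in epidermis, as in other renewing tissues, cells that grow and divide need new ribosomes.

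The arrays called 47.2% to 53.3% of 45101 probe sets present. All 9 basal keratinocyte markers examined, Krt14, Krt5 and Itga6 among them, were detected. The ratio of 3′ to 5′ actin signal, a sign of RNA quality, was 1.78 on replicate 1 and 3.90 on replicate 2 of 16 dpc ventral cells, 2.04 and 4.47 in 16 dpc dorsal cells, and 2.46 and 2.15 in virgin ventral cells. By the actin ratio, replicate 2 of both 16 dpc groups thus stood apart from the other 4 arrays. The same ratio for Gapdh was also highest on these arrays, at 2.86 in ventral and 2.83 in dorsal cells. The first virgin array came next in the Gapdh ratio. It lay nearer to them than to the second virgin array, which was lowest at 1.53. The virgin arrays thus differed in this ratio, and leaving out the arrays of high actin ratio does not remove that difference. Over the 10993 genes kept, the limma fit with Benjamini-Hochberg adjustment called 22 in 16 dpc ventral over virgin ventral cells (0.200% of genes tested), 0 in 16 dpc dorsal over virgin ventral cells and 9 in 16 dpc ventral over 16 dpc dorsal cells (0.0819%). At an unadjusted p under 0.05 these comparisons gave 1280 (11.6%), 799 (7.27%) and 559 genes (5.09%).

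The ribosome biogenesis genes had slightly higher signals at 16 dpc in both ventral and dorsal cells, but no single gene passed the test. Compared with virgin ventral cells, 37 of 38 had a higher mean log2 signal in 16 dpc ventral cells (53.0% of all genes) and 37 of 38 in 16 dpc dorsal cells (60.2% of all genes). It was the same 37 genes at both sites, against 43.6% of all genes that were higher in both, and the exception was Nop58. The median log2 fold change over the 38 genes was 0.42 in ventral cells, a 1.34-fold difference, where the median of all genes was 0.02. In dorsal cells the median was 0.35, a 1.27-fold difference, against 0.07 for all genes. Both comparisons share the 2 virgin arrays, so they are not independent of each other.

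None of the 38 genes reached an adjusted p under 0.05 in limma for either comparison. At an unadjusted p under 0.05, 18 of 38 were higher in 16 dpc ventral cells, where 6.18% of all genes were, and 0 were lower (5.47% of all genes). In 16 dpc dorsal cells 11 of 38 were higher, against 3.88% of all genes, and 0 were lower (3.39% of all genes). Both 16 dpc ventral arrays exceeded both virgin arrays for 32 genes (23.8% of all genes), and both 16 dpc dorsal arrays did so for 23 (24.3% of all genes). Every 16 dpc array of both sites lay above both virgin arrays for 21 genes, against 13.4% of all genes.

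The size of the difference depended on the virgin array used. The median deviation of the 38 genes from their own mean over the 6 arrays was 0.16 and 0.15 log2 units in 16 dpc ventral cells, -0.0022 and 0.17 in 16 dpc dorsal cells, and -0.11 and -0.42 in virgin ventral cells. The second virgin array was thus the lowest of the 6, and the first lay nearer to the 16 dpc arrays. The column headers of the files give arrays of the same replicate number in the 3 groups a shared prefix, so differences were also taken within each number. Within replicates 1 and 2 the median log2 difference was 0.31 and 0.52 for 16 dpc ventral over virgin ventral cells, and 0.17 and 0.58 for 16 dpc dorsal over virgin ventral cells. In ventral cells 34 of 38 genes were higher within both numbers (31.1% of all genes), and in dorsal cells 26 (34.1% of all genes). Without the second virgin array the median was 0.29 in ventral and 0.19 in dorsal cells, and 35 of 38 genes were still higher at each site. With both virgin arrays, 53.0% and 60.2% of all genes were higher.

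**Figure D1:**
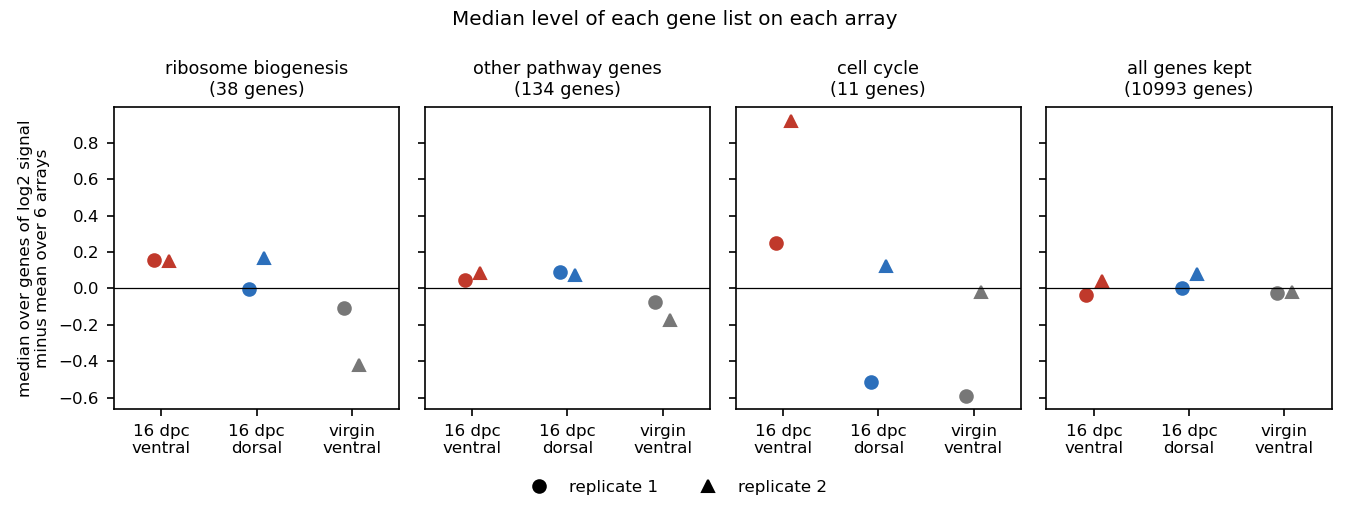
Median deviation of log2 signal from each gene's mean over the 6 arrays, for each array, over the 38 ribosome biogenesis genes, 134 other genes of the pathway, 11 cell cycle genes and all 10993 genes kept. For the ribosome biogenesis genes the virgin arrays lie at -0.11 and -0.42 and both 16 dpc ventral arrays near 0.15, with the 16 dpc dorsal arrays at -0.0022 and 0.17.

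Of the genes for rRNA transcription, Polr1b, the second-largest subunit of RNA polymerase I (probe set 1416126_at), had signals of 877 and 978 a.u. in 16 dpc ventral, 884 and 953 in 16 dpc dorsal, and 717 and 458 in virgin ventral cells. All 16 dpc arrays exceeded both virgin arrays, and the 16 dpc sites overlapped. Relative to virgin cells it stood at a log2 fold change of 0.69 ± 0.23 (SE) in ventral cells (limma adjusted p = 0.306) and 0.68 ± 0.23 in dorsal cells (adjusted p = 0.613). Polr1a, the largest subunit of the enzyme, had log2 fold changes of 0.23 and 0.17 for ventral and dorsal cells, with overlap of the groups in both. Mybbp1a, a MYB-binding protein of the nucleolus, stood at 0.12 and 0.07.

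Over virgin cells, Myc itself stood below the median of the 38 genes in ventral cells and near it in dorsal cells (medians 0.42 and 0.35). Its signals (probe set 1424942_a_at) were 2276 and 3078 a.u. in 16 dpc ventral, 2692 and 3086 in 16 dpc dorsal, and 2287 and 2284 in virgin ventral cells. The first 16 dpc ventral array lay at the level of the virgin arrays, while both dorsal arrays were above them. On the log2 scale the difference from virgin cells was 0.21 ± 0.18 in ventral (adjusted p = 0.702) and 0.33 ± 0.18 in dorsal cells (adjusted p = 0.702), with 95% intervals of -0.20 to 0.62 and -0.07 to 0.74. Without the second ventral array the ventral Myc value was -0.0060.

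The genes for box C/D proteins differed among themselves. Nop56, a core scaffold of these particles (probe set 1455035_s_at), had signals of 3331 and 4040.4 a.u. in 16 dpc ventral, 2700.2 and 3599 in 16 dpc dorsal, and 2405 and 1866 in virgin ventral cells. All 16 dpc arrays were above the virgin arrays. Set against virgin cells, the log2 fold change was 0.79 ± 0.20 in ventral cells (adjusted p = 0.229) and 0.56 ± 0.20 in dorsal cells (adjusted p = 0.651). Fbl, the fibrillarin methyltransferase, stood at 0.51 and 0.50 with the same separation of the arrays.

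Nop58, the partner of Nop56 in the same particles, was the only member with a lower mean at 16 dpc. Its probe set (1450986_at) had signals of 3313 and 1649 a.u. in 16 dpc ventral, 3071 and 1086 in 16 dpc dorsal, and 2697 and 2729 in virgin ventral cells. Replicate 1 of both 16 dpc groups was above the virgin arrays and replicate 2 of both was below them, so the groups overlapped. The fitted log2 difference from virgin cells was -0.22 ± 0.45 in ventral (adjusted p = 0.897) and -0.57 ± 0.45 in dorsal cells (adjusted p = 0.757). The low arrays were those with the high actin ratio, and without both of them the log2 fold change of Nop58 was 0.29 in ventral and 0.18 in dorsal cells. The part of RNA quality in the values of this gene was not tested further.

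Among the box H/ACA proteins, Nolc1, a chaperone of snoRNPs, had the smallest adjusted p of the 38 genes for 16 dpc ventral over virgin ventral cells. Probe set 1428869_at gave signals of 1434 and 1488 a.u. in 16 dpc ventral, 1339 and 1162 in 16 dpc dorsal, and 953 and 791 in virgin ventral cells. The 3 groups did not overlap, with ventral cells highest and virgin cells lowest. Relative to virgin cells it stood at a log2 fold change of 0.75 ± 0.17 in ventral (adjusted p = 0.184) and 0.52 ± 0.17 in dorsal cells (adjusted p = 0.602).

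Dkc1, the pseudouridine synthase dyskerin, showed the same order. Its signals (probe set 1438016_at) were 4992 and 5126 a.u. in 16 dpc ventral, 4032 and 4664 in 16 dpc dorsal, and 3655 and 3123 in virgin ventral cells, again without overlap of the groups. On the log2 scale the difference from virgin cells was 0.58 ± 0.16 in ventral (adjusted p = 0.243) and 0.36 ± 0.16 in dorsal cells (adjusted p = 0.687). The other three proteins bound to dyskerin in these particles, Nhp2, Gar1 and Nop10, were nearer to the virgin level. They stood between 0.13 and 0.24 in ventral and between 0.19 and 0.26 in dorsal cells.

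Of the nucleolar scaffold and chaperone genes, Ncl, which encodes the RNA-binding protein nucleolin (probe set 1415771_at), had signals of 12454 and 13570.0 a.u. in 16 dpc ventral, 11435 and 13076 in 16 dpc dorsal, and 9696 and 8468 in virgin ventral cells. Every 16 dpc array was above both virgin arrays, and the 2 sites overlapped. Set against virgin cells, the log2 fold change was 0.52 ± 0.16 in ventral (adjusted p = 0.267) and 0.43 ± 0.16 in dorsal cells (adjusted p = 0.657). Rrp1b, a nucleolar protein of large subunit processing, stood at 0.58 and 0.31. Npm1, the abundant histone and ribosome chaperone nucleophosmin, stood at only 0.11 and 0.19.

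The small subunit processome is the first large particle to form on nascent pre-rRNA. Heatr1, a subunit that also acts in rRNA gene transcription (probe set 1424522_at), had signals of 1879.7 and 1776 a.u. in 16 dpc ventral, 1485 and 1759.9 in 16 dpc dorsal, and 1503 and 1148 in virgin ventral cells. The ventral arrays lay above the other 4, and the first dorsal array was within the virgin range. The fitted log2 difference from virgin cells was 0.48 ± 0.18 in ventral (adjusted p = 0.380) and 0.30 ± 0.18 in dorsal cells (adjusted p = 0.719). The other three processome genes tested, Utp20, Wdr43 and Nop14, had log2 fold changes of 0.13 to 0.43 in ventral and 0.20 to 0.47 in dorsal cells, and 16 dpc and virgin arrays overlapped at 1 site or both for each of them.

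The factors that finish the small subunit in the late nucleolus and cytoplasm held the largest differences in ventral cells. Bysl, which encodes bystin, a processing factor of late small subunit precursors (probe set 1422767_at), had signals of 1125 and 1155 a.u. in 16 dpc ventral, 776 and 756 in 16 dpc dorsal, and 772 and 503 in virgin ventral cells. Only the ventral 16 dpc arrays stood clear, while the dorsal arrays were near the first virgin array. Relative to virgin cells it stood at a log2 fold change of 0.87 ± 0.22 in ventral (adjusted p = 0.222) and 0.30 ± 0.22 in dorsal cells (adjusted p = 0.744). Without the second virgin array the dorsal Bysl value was -0.012.

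Rrp12, which acts in the export of pre-ribosomal subunits from the nucleus, was also highest in ventral 16 dpc cells. Unlike for Bysl, both dorsal arrays were above both virgin arrays. Probe set 1434239_at gave signals of 578 and 528 a.u. in 16 dpc ventral, 418 and 390.3 in 16 dpc dorsal, and 359.8 and 276 in virgin ventral cells. No group overlapped another. On the log2 scale the difference from virgin cells was 0.81 ± 0.22 in ventral (adjusted p = 0.244) and 0.36 ± 0.22 in dorsal cells (adjusted p = 0.719).

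Tsr1, a GTPase-like factor of late small subunit precursors, had a log2 difference between the 16 dpc sites of 0.04, with a 95% interval of -0.41 to 0.48. Its signals (probe set 1455643_s_at) were 3618 and 4172 a.u. in 16 dpc ventral, 3271 and 4390.3 in 16 dpc dorsal, and 2877 and 2267.5 in virgin ventral cells, with all 16 dpc arrays above both virgin arrays. Set against virgin cells, the log2 fold change was 0.60 ± 0.20 in ventral (adjusted p = 0.291) and 0.57 ± 0.20 in dorsal cells (adjusted p = 0.613).

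Nob1, the endonuclease that makes the final cut of small subunit rRNA, ran the other way between sites. Probe set 1454957_at gave signals of 841 and 803 a.u. in 16 dpc ventral, 974 and 1021 in 16 dpc dorsal, and 794 and 669.7 in virgin ventral cells. Dorsal arrays were highest and virgin arrays lowest, without overlap. The fitted log2 difference from virgin cells was 0.17 ± 0.17 in ventral (adjusted p = 0.750) and 0.45 ± 0.17 in dorsal cells (adjusted p = 0.663). Ltv1, another factor of late small subunit precursors, stood at 0.24 and 0.12.

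**Figure D2:**
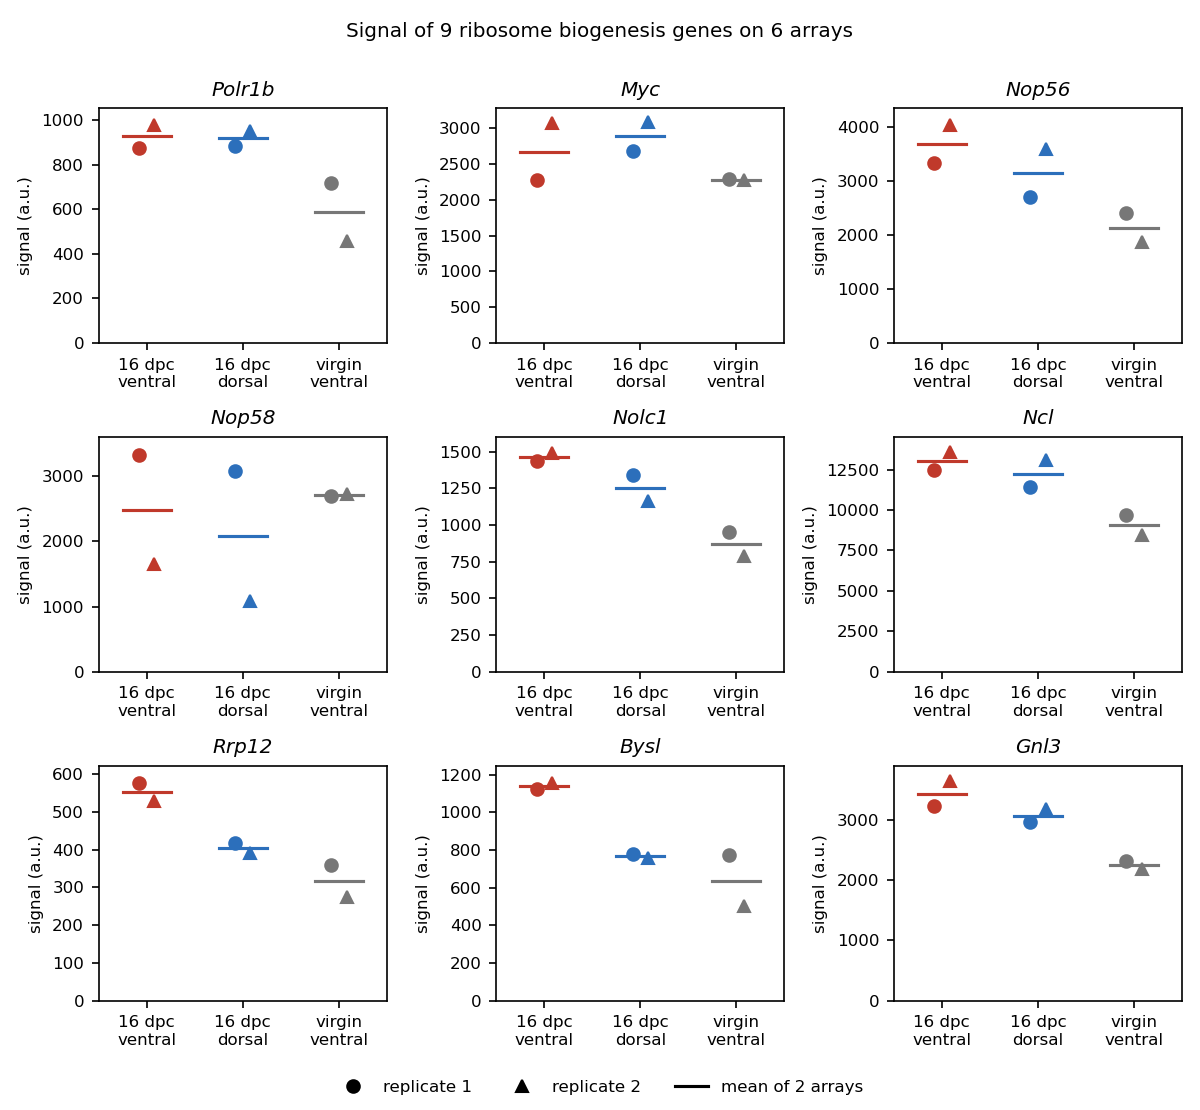
Signal in arbitrary units on each array, on a linear axis from 0, for 9 ribosome biogenesis genes in 16 dpc ventral (red), 16 dpc dorsal (blue) and virgin ventral cells (grey). Circles are replicate 1, triangles replicate 2 and lines the group means. Nolc1 and Rrp12 separate all 3 groups, Bysl is high in ventral 16 dpc cells, and Nop58 drops on replicate 2 of both 16 dpc groups.

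The 14 large subunit factors had a median log2 fold change of 0.42 in 16 dpc ventral and 0.41 in 16 dpc dorsal cells over virgin ventral cells. All 14 had the higher mean at both sites, against 43.6% of all genes. Gnl3, the nucleolar GTPase nucleostemin (probe set 1433656_a_at), had signals of 3225 and 3635 a.u. in 16 dpc ventral, 2953 and 3182 in 16 dpc dorsal, and 2317 and 2179 in virgin ventral cells. The 3 groups did not overlap. Relative to virgin cells it stood at a log2 fold change of 0.61 ± 0.15 in ventral (adjusted p = 0.210) and 0.45 ± 0.15 in dorsal cells (adjusted p = 0.602).

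Brix1, an assembly factor with an rRNA-binding fold (probe set 1451144_at), had signals of 2253 and 2702 a.u. in 16 dpc ventral, 2147 and 2198 in 16 dpc dorsal, and 1690.4 and 1665 in virgin ventral cells. These too separated into 3 groups. On the log2 scale the difference from virgin cells was 0.56 ± 0.15 in ventral (adjusted p = 0.248) and 0.37 ± 0.15 in dorsal cells (adjusted p = 0.672).

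Ddx21, a nucleolar RNA helicase (probe set 1448270_at), had signals of 2547 and 2649 a.u. in 16 dpc ventral, 2082 and 2306 in 16 dpc dorsal, and 1955 and 1548 in virgin ventral cells. The groups did not overlap, and the first dorsal array was close to the first virgin array. Set against virgin cells, the log2 fold change was 0.58 ± 0.17 in ventral (adjusted p = 0.248) and 0.33 ± 0.17 in dorsal cells (adjusted p = 0.698).

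Nop16, a nucleolar assembly factor, had the larger difference in dorsal cells. Its signals (probe set 1424620_at) were 1435 and 1213 a.u. in 16 dpc ventral, 1465 and 1375 in 16 dpc dorsal, and 953 and 1012 in virgin ventral cells. All 16 dpc arrays exceeded both virgin arrays, and the sites overlapped. The fitted log2 difference from virgin cells was 0.43 ± 0.16 in ventral (adjusted p = 0.380) and 0.53 ± 0.16 in dorsal cells, where its adjusted p of 0.589 was the smallest of the 38 genes.

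The other ten large subunit genes tested had log2 fold changes of 0.19 to 0.69 in ventral and 0.19 to 0.50 in dorsal cells over virgin ventral cells. Bop1, Pes1 and Wdr12, whose products form 1 complex, stood at 0.46, 0.36 and 0.69 in ventral and at 0.24, 0.28 and 0.50 in dorsal cells. Nop2, an rRNA methyltransferase, stood at 0.36 and 0.30. Ddx18, a helicase, was the lowest of these genes at both sites with 0.19 and 0.19. Its signals were nevertheless 1959 and 1902 a.u. in 16 dpc ventral and 1996 and 1869 in 16 dpc dorsal cells, against 1728 and 1664 in virgin ventral cells, so the small difference came without overlap.

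**Figure D3:**
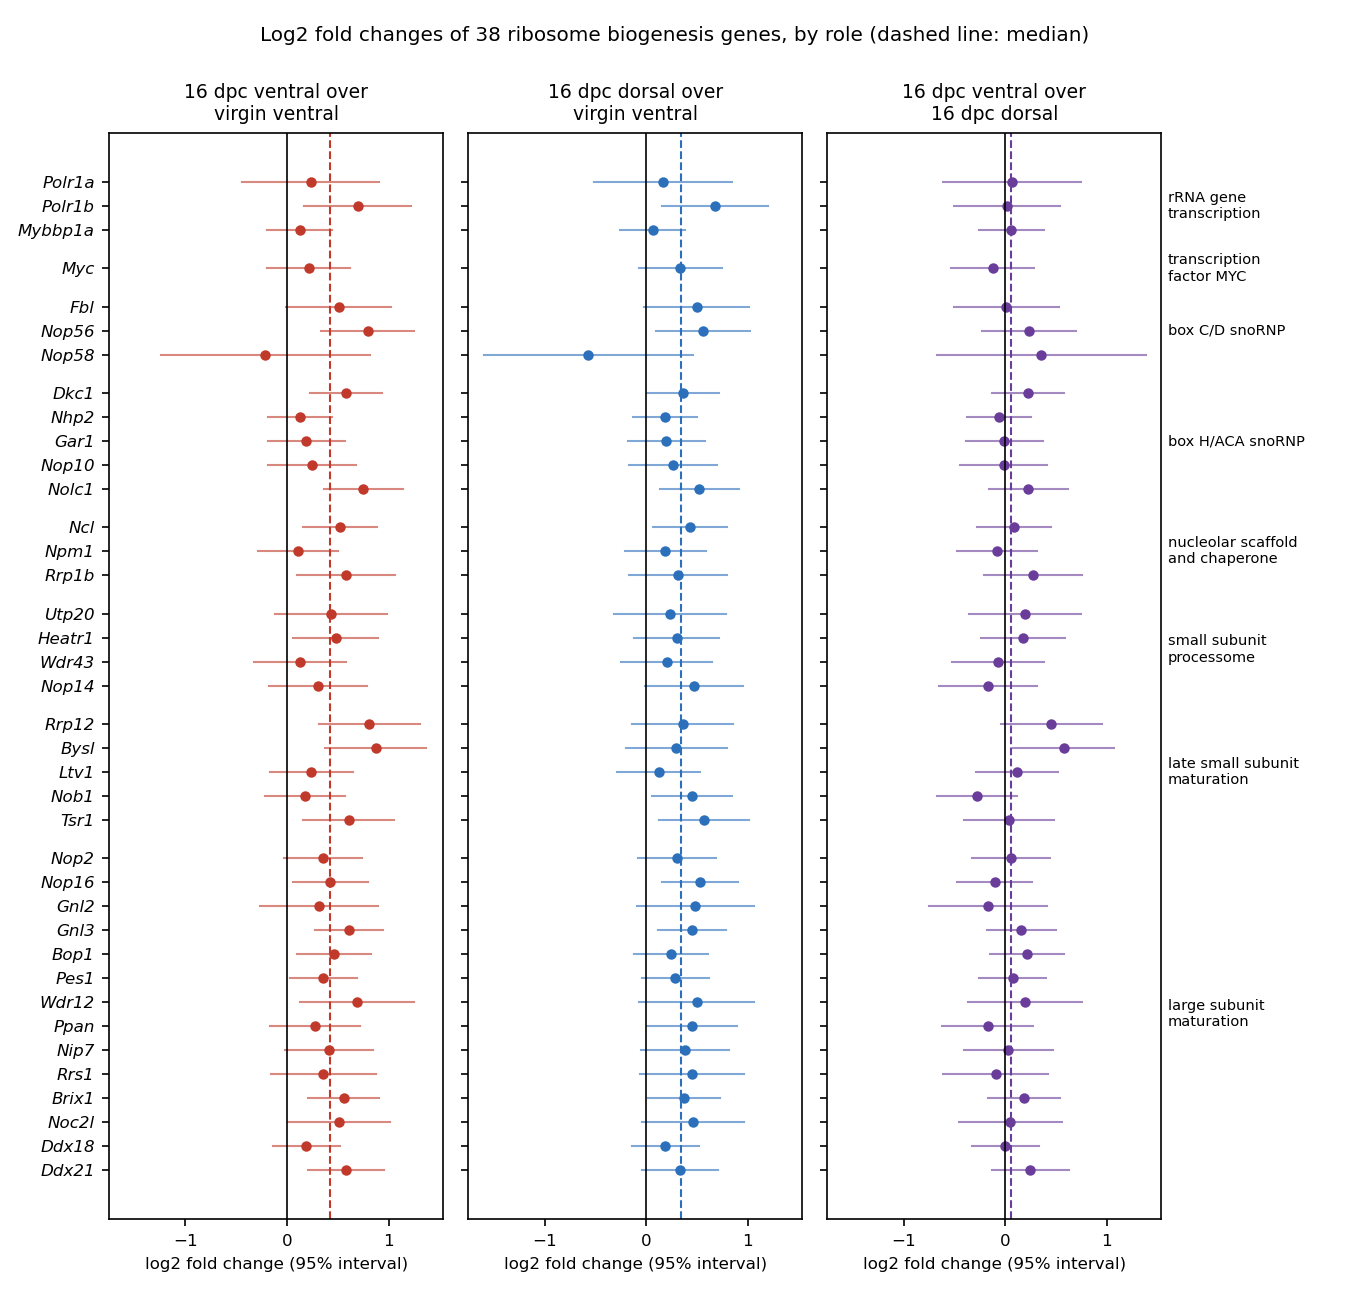
Log2 fold change with its 95% interval for each of the 38 genes. The panels set 16 dpc ventral cells against virgin ventral cells, 16 dpc dorsal cells against virgin ventral cells, and 16 dpc ventral cells against 16 dpc dorsal cells, with the median as a dashed line. Medians were 0.42, 0.35 and 0.06, and only Nop58 lies below 0 in the panels against virgin cells.

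Whether the higher signals were shared by both 16 dpc sites was examined directly in 16 dpc ventral over 16 dpc dorsal cells. The median log2 fold change was 0.06 over the 38 genes, against -0.03 for all genes, and 25 of 38 had the higher mean in ventral cells (43.3% of all genes). Within replicates 1 and 2 this median was 0.12 and 0.0045. No gene of the 38 passed the test, and 1, Bysl, had an unadjusted p under 0.05 for a higher signal in ventral cells (2.65% of all genes). Both ventral arrays were above both dorsal arrays for 11 genes (13.1% of all genes) and below them for 3, Nhp2, Nob1 and Ppan (19.7% of all genes). By order of the group means, virgin cells were lowest for 37 of 38 (43.6% of all genes). Ventral 16 dpc cells were highest for 24 (31.0% of all genes) and dorsal 16 dpc cells for 13 (38.6% of all genes).

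The highest and the lowest value between the sites both lay in the late small subunit factors. The log2 fold change of 16 dpc ventral over 16 dpc dorsal cells was 0.57 ± 0.22 for Bysl (limma adjusted p = 0.866, 95% interval 0.07 to 1.07) and 0.45 ± 0.22 for Rrp12 (adjusted p = 0.9999, interval -0.05 to 0.95). Nob1 had the lowest value, -0.28 ± 0.17 (adjusted p = 0.9999, interval -0.67 to 0.11). For Polr1b the value was 0.01, with an interval of -0.51 to 0.54. With 2 arrays per group, neither equal levels nor a difference between the sites was shown for any single gene.

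At a log2 fold change of 0.5 or more, 15 of 38 genes lay in 16 dpc ventral over virgin ventral cells (8.21% of all genes) and 5 in 16 dpc dorsal over virgin ventral cells (5.42% of all genes). The 4 genes at or above this size at both sites were Polr1b, Nop56, Nolc1 and Tsr1 (3.07% of all genes). They act in rRNA transcription, methylation, snoRNP assembly and late small subunit assembly. Without both arrays of high actin ratio the dorsal values of Nop56 and Tsr1 were below this size, at 0.35 and 0.36, against 0.63 for Polr1b and 0.63 for Nolc1. When both 16 dpc groups were averaged and set against virgin cells, 37 of 38 genes had the higher mean (56.9% of all genes), the median log2 fold change was 0.39, the smallest adjusted p was 0.210 for Nolc1, and 20 of 38 genes had an unadjusted p under 0.05 with the higher signal (6.00% of all genes).

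The 38 genes were read by 78 probe sets together with Rrp9, and further probe sets of the same genes gave smaller differences. Of 37 further probe sets called present on at least 1 array, 30 had the higher mean in 16 dpc ventral cells than in virgin ventral cells. In 16 dpc dorsal cells 25 did, and the median log2 fold changes were 0.30 and 0.15. Of all genes, read by 1 probe set each, 53.0% and 60.2% had the higher mean. Of 29 further probe sets present on all 6 arrays, 27 and 23 had the higher mean, with medians of 0.31 and 0.22. Some probe sets of 1 gene disagreed. A further Dkc1 probe set (1438015_at) read 1539 and 582 a.u. in 16 dpc ventral, 1192 and 452 in 16 dpc dorsal, and 1203 and 1492 in virgin ventral cells, with log2 fold changes of -0.50 and -0.87. As for Nop58, the low arrays were replicate 2 of both 16 dpc groups. The remaining Dkc1 probe set (1441788_s_at) stood at 0.61 in ventral and 0.59 in dorsal cells. A further Rrp1b probe set (1452118_at) stood at -0.57 in ventral and -0.61 in dorsal cells. It read 442 and 268 a.u. in 16 dpc ventral, 469 and 238 in 16 dpc dorsal, and 518 and 502 in virgin ventral cells. Its lowest arrays were again replicate 2 of both 16 dpc groups. Another Rrp1b probe set (1452119_at) stood at 0.18 and -0.14. For Polr1a, probe set 1460215_at, called present on 2 arrays, stood at -0.46 and -1.33, and the same replicate 2 arrays were its lowest. The Polr1a probe set 1456066_a_at, called present on 3, stood at -0.26 and 0.13.

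Other probe sets of the same genes did not all follow the one used. The further Bysl probe set (1450742_at) had log2 fold changes of 0.79 in ventral and 0.30 in dorsal cells, and a further Nolc1 probe set (1428870_at) stood at 1.01 and 0.77. Another Nolc1 probe set (1450087_a_at) averaged near 0 at both sites. It read 295 and 125 a.u. in 16 dpc ventral, 223 and 155 in 16 dpc dorsal, and 180 and 198 in virgin ventral cells. Replicate 1 of both 16 dpc groups was above the virgin arrays and replicate 2 of both was below them. The second Nop56 probe set (1426533_at) stood at 0.16 in ventral and -0.22 in dorsal cells. With the mean of all probe sets of a gene, the median over the 38 genes was 0.30 in ventral and 0.25 in dorsal cells. The medians of all genes were then -0.035 and 0.0022. Of the 38 genes, 36 and 34 had the higher mean. The shares of all genes were not counted in this setting, and in the main fit they were 53.0% and 60.2%. Probe sets whose names end in _s_at or _x_at, as used for Nop56, Fbl, Nhp2, Gar1, Wdr43, Tsr1 and Rrs1, can match related transcripts, so the values of these genes are less certain.

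**Figure D4:**
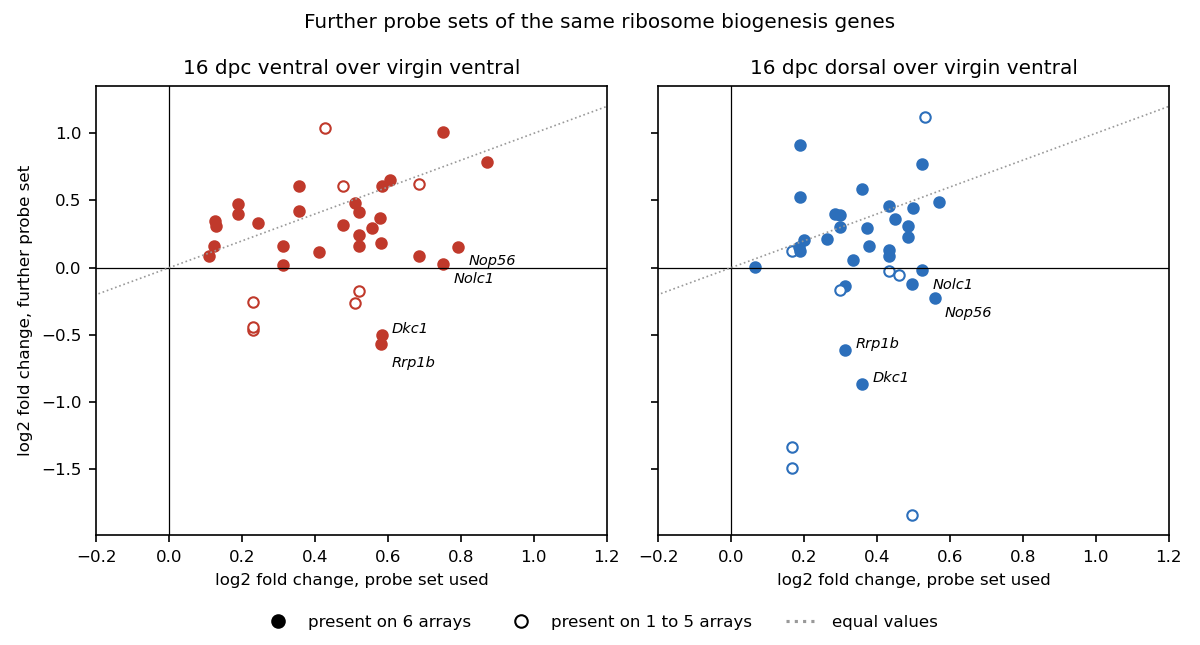
Log2 fold change over virgin ventral cells of the probe set used for each gene (horizontal axis) and of its further probe sets (vertical axis), for 16 dpc ventral and 16 dpc dorsal cells. Filled points were called present on all 6 arrays, and the named points of Dkc1 and Rrp1b lie below 0 on the vertical axis only.

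Other genes of the pathway, 142 by a list of their known roles, had smaller median differences in the same direction, with falls among them. Of 134 that passed the filter, 107 had the higher mean in 16 dpc ventral cells than in virgin ventral cells (53.0% of all genes). In 16 dpc dorsal cells 106 did (60.2% of all genes). The medians were 0.20 and 0.20, against 0.02 and 0.07 for all genes, and 0 passed the test. Single genes ranged from -1.472 (Xrn2) to 0.87 (Pno1) in ventral and from -1.905 (Xrn2) to 0.69 (Rrp15) in dorsal cells. The largest difference at each site was thus a fall. Pno1, a factor of late small subunit precursors, had signals of 1868 and 1833 a.u. in 16 dpc ventral, 1474 and 1342 in 16 dpc dorsal, and 1087 and 949 in virgin ventral cells, with no overlap between groups. Relative to virgin cells it stood at a log2 fold change of 0.87 ± 0.16 in ventral cells (limma adjusted p = 0.0951, and 0.0447 with replicate number as a block) and 0.47 ± 0.16 in dorsal cells (adjusted p = 0.612). Rrp15, a large subunit factor, stood at 0.64 and 0.69, and Utp18 of the processome at 0.50 and 0.34. The 3 genes with the smallest p among those with a lower mean in ventral cells were the MYC antagonists Mxi1 (-0.56 in ventral and -0.30 in dorsal cells) and Mxd1 (-0.59 and -0.36), and Nsa2, a large subunit factor (-0.79 and -0.71). None of the 3 passed the test.

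By step of the pathway, the 7 snoRNP assembly genes had median log2 fold changes of 0.41 in 16 dpc ventral and 0.28 in 16 dpc dorsal cells over virgin ventral cells. The 43 further small subunit genes and 44 further large subunit genes had median log2 fold changes of 0.26 and 0.26 in 16 dpc ventral cells and of 0.28 and 0.23 in 16 dpc dorsal cells. The 14 genes listed with the exosome, whose products trim rRNA ends, stood at 0.14 and 0.13, with Xrn2 the lowest of them. The 16 further genes of rRNA transcription stood at 0.07 and 0.15, and the 10 genes of the MYC network at -0.04 and -0.07. All steps but the MYC network thus had medians above those of all genes at both sites.

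Cell cycle genes were compared over the same groups, since dividing cells make ribosomes. All 11 measured, among them Mki67, Top2a and the Mcm helicase subunits, had a higher mean in 16 dpc ventral than in 16 dpc dorsal cells (43.3% of all genes). All 11 were also higher than in virgin ventral cells (53.0% of all genes). Median log2 fold changes of the 11 genes were 0.86 and 0.81. In 16 dpc dorsal over virgin ventral cells their median was 0.09, and 7 of 11 had the higher mean, near the 60.2% of all genes. The matching medians of the 38 ribosome biogenesis genes were 0.06, 0.42 and 0.35. None of the 11 passed the adjusted test, and the difference between the 2 lists was not tested. On single arrays the cell cycle genes were higher on replicate 2 than on replicate 1 in every group, whereas the ribosome biogenesis genes were lower on replicate 2 in virgin cells.

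Markers of other cell types also differed between the groups. The 8 spinous and granular markers, of layers above the basal one, summed to 89023 and 97111 a.u. in 16 dpc ventral and to 89414 and 108800 in 16 dpc dorsal cells. In virgin ventral cells they summed to 105220 and 104240. Their median log2 fold change over virgin cells was -0.27 in ventral cells (Flg -1.43 to Krt2 1.83) and -0.44 in dorsal cells (Flg -1.35 to Krt1 0.05). The summed signal of 7 Langerhans cell markers was 7434 and 5172 a.u. in 16 dpc ventral, 6789 and 5784 in 16 dpc dorsal, and 3779 and 2347 in virgin ventral cells. That of 6 epidermal T cell markers was 3509 and 4572 in 16 dpc ventral, 1782 and 2824 in 16 dpc dorsal, and 667 and 671 in virgin ventral cells, with most of it from Thy1, while Cd3e, Cd3d and Cd7 were called present on no array. Mammary epithelial markers summed to 7309 on the first 16 dpc ventral array and to at most 1126 on the other 5. Fibroblast markers summed to 193 and 190.2 in 16 dpc ventral, 176 and 160.3 in 16 dpc dorsal, and 267 and 437 in virgin ventral cells, while Col1a2, Lum and Pdgfra were called present on no array. The second virgin array, on which the ribosome biogenesis genes were lowest, had the highest sums of hair follicle bulge and of endothelial and mural markers as well. Bulge markers summed to 6383 on this array and to between 2257 and 4366 on the other 5, and endothelial and mural markers to 1308 and to between 431 and 794, with Pecam1, Cdh5, Kdr and Myh11 called present on no array. The part of these cells in the signals of the ribosome biogenesis genes was not tested.

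Promoter sequences were examined for motifs, since the members share a pathway and many are known targets of MYC. RefSeq promoter windows of 300 bases (250 before and 50 after the transcription start, GRCm38.p6) were matched by symbol for 33 of the 40 genes, in 37 windows. The E-box CACGTG, to which MYC and its partner MAX bind, was found in 7 of 37 windows (18.9%), against 9.88% of windows of all genes kept on the arrays and 7.15% of all windows. The ETS motif CCGGAAG was in 12 windows (32.4%), against 17.9% and 8.86%, and the GC box GGGCGG in 24 (64.9%), against 62.9% and 35.7%. Both strands were searched, and bases shared by adjoining motifs counted for each. A match is a description of letters in the window and not evidence of binding.

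The E-boxes lie in the following 30-base stretches, shown because Myc is the transcription factor among the 40 genes. They are written 5′ to 3′ on the gene's strand with the motif in capitals, and the positions are those of the stretch in GRCm38.p6.
Ltv1 (chr10:13193092-13193121, minus strand): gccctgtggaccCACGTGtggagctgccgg
Mybbp1a (chr11:72441347-72441376, plus strand): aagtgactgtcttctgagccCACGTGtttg
Nop2 (chr6:125131811-125131840, plus strand): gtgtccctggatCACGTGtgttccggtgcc
Pes1 (chr11:3963965-3963994, plus strand): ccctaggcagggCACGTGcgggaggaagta
Tsr1 (chr11:74898092-74898121, plus strand): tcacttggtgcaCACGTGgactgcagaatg
Utp20 (chr10:88826765-88826794, minus strand): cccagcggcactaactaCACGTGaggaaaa
Wdr43 (chr17:71616220-71616249, plus strand): cgcccgggcgaaCACGTGgctgccgcggag
The Nop2 motif lies before the annotated start and the other six at or after it. In 16 dpc ventral over virgin ventral cells these genes had log2 fold changes of 0.12 (Mybbp1a) to 0.60 (Tsr1), within the range of the other members.

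ETS motifs of the 4 members described in full that hold one are shown in the same way, since this motif was the more frequent of the 2 in these windows.
Nolc1 (chr19:46075822-46075851, plus strand): cgcgtgtgggaCCGGAAGcaacttctagat
Heatr1 (chr13:12395348-12395377, plus strand): gtagtgagaagCCGGAAGttcctatgaggc
Brix1, nearer to the start (chr15:10485912-10485941, minus strand): gagcggcagaaCCGGAAGtgcaggcagcga
Brix1, upstream (chr15:10486001-10486030, minus strand): ctacctcgagaCCGGAAGcgagcgccttgg
Tsr1 (chr11:74898068-74898097, plus strand): ctcgggtccgcCCGGAAGtagagttcactt
Tsr1 and Nop2 held both motifs within 50 bases of each other, and Ltv1 held both further apart. Bysl, Rrp12 and Nob1 are not among the members with either motif in a window examined here, and Rrp12 was not among the 33 matched.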

How the data were processed

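RNA of sorted basal cells was hybridised to 6 arrays. The deposited files hold, for every probe set, a detection call and a linear signal intensity, which the authors made with Affymetrix Expression Console version 1 per the submitters' processing notes. As far as the values show, this is a MAS5 signal that the authors scaled: with 2% trimmed at each end its mean was 500.0 on every array. After such scaling, a difference in total RNA per cell is no longer visible, and where RNA is degraded, 3′ arrays lose signal at distant probe sets. No genome build is named for the arrays in the sources used here.

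Signals under 1 were raised to 1 and converted to log2. In the platform annotation 34945 of 45101 probe sets name 1 gene. Each of 18193 genes was represented by its probe set of highest mean log2 signal, and the 10993 genes detected as present in 2 of 2 arrays of any group entered the fit. This was made with limma 3.58.1 in R 4.3.3 (lmFit, then eBayes with the variance trend), two-sided, on the 6 arrays in 3 groups with no other term, which left 3 residual and 5.79 prior degrees of freedom. P-values were adjusted by Benjamini-Hochberg over all 10993 genes, with 0.05 as the threshold. Fits were tested on simulated data with independent arrays and planted changes larger than those of the members. That check does not cover changes of the members' size or scatter shared between arrays. The number of arrays limits the precision.

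The members and lists were chosen with earlier results of these data known, so no test was made over a list, and counts stand beside the same counts over all genes. Described in full were the members of smallest p (8 in 16 dpc ventral over virgin ventral, 5 in each of the other 3 comparisons, and the first of each role in ventral over virgin), Myc and any member with a lower mean in 16 dpc ventral cells. Other pathway genes named were the 3 of smallest p in each direction. The series' value table repeats these signals (relative differences of at most 5.00e-06). Alternatives were a replicate block, no variance trend, other filters, probe set rules, floors and scalings, and leaving out arrays.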

Additional observations from a re-analysis of the deposited data

How the results depend on the processing

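The 38 genes gave 0 calls under every alternative run. The 16 members described in full thus stayed on the same side of the threshold, but 18 of their 1024 values under an alternative changed sign, all of them where arrays were left out. These belonged to 7 genes, and the cause was not tested. Without both arrays of high actin ratio, Nop58 was at 0.29 in 16 dpc ventral, 0.18 in 16 dpc dorsal and 0.23 in both 16 dpc groups over virgin, Myc at -0.0060 in ventral over virgin, and Polr1b at -0.011 between the sites. Leaving out 1 array at a time, Myc lay between -0.0060 and 0.43 and Nop58 between -0.72 and 0.29 in 16 dpc ventral over virgin, and Nop58 between -1.32 and 0.18 and Bysl between -0.012 and 0.61 in 16 dpc dorsal over virgin. In ventral over dorsal the ranges were -0.065 to 0.092 for Polr1b, -0.34 to 0.095 for Myc, -0.39 to 1.11 for Nop58, -0.0084 to 0.18 for Ncl, -0.18 to 0.25 for Tsr1 and -0.23 to 0.016 for Nop16. The median over the 38 genes moved by more than the spread of replicates only where a virgin array was left out. Leaving out each array in turn gave medians of 0.29 to 0.56 for 16 dpc ventral over virgin ventral, 0.19 to 0.49 for 16 dpc dorsal over virgin ventral, -0.0038 to 0.16 for 16 dpc ventral over 16 dpc dorsal and 0.25 to 0.56 for both 16 dpc groups over virgin ventral cells. The high ends against virgin cells came without the first virgin array, and the value of -0.0038, a reversed sign, without the first dorsal array. Without both arrays of high actin ratio the medians were 0.45, 0.26, 0.12 and 0.34, with 37, 36, 29 and 38 genes higher. In the main fit 53.0%, 60.2%, 43.3% and 56.9% of all genes were higher.

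Counts over all genes depended more on the setting. Main counts in the same order were 22, 0, 9 and 9. They were 86, 11, 16 and 39 with the replicate block, and 115, 62, 24 and 119 without both arrays of high actin ratio. Without the variance trend they were 0 in ventral over virgin, 1 in ventral over dorsal and 0 in both over virgin cells, and with a floor of 32 they were 0 in these 3. With the mean of all probe sets they were 5, 0 and 1 in the same 3. Genes present on all 6 arrays gave 5 in dorsal over virgin and 15 in both over virgin cells, quantile normalization 7 and 19, and the probe set with most present calls 6 in dorsal over virgin cells. Leaving out 1 array gave 1 to 59, 0 to 33, 0 to 7 and 0 to 74 genes. The cause of these changes was not tested. Deviations of same-numbered arrays from their group means correlated between the 16 dpc sites, at 0.45 over all genes and 0.56 over the 38 genes. Between virgin cells and 16 dpc dorsal and ventral cells the correlation was 0.03 and 0.0069 over all genes. Over the 38 genes it was -0.23 and 0.02. The main fit took no account of the scatter shared by the 16 dpc sites, and the block stands for the shared header prefix. The 2 arrays per group limited the precision for the 38 genes, which were all called present.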
